A study of Mus musculus with 8 samples.

Results

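The genes of the AMPA receptor and of its transmembrane regulatory proteins (TARPs) were followed by symbol in every class of nuclei. They are the subunit genes Gria1, Gria2, Gria3 and Gria4 and the TARP genes Cacng2, Cacng3, Cacng4, Cacng5, Cacng7 and Cacng8, 10 of the 54232 features in the matrices, each found once. The data are single-nucleus RNA counts from the forebrain of male Swiss Webster mice aged 10 weeks, taken as a 2 mm cube of tissue next to the lesion and frozen. The 8 libraries form 4 groups of 2: control, BCAS, TBI and BCAS+TBI. TBI stands for traumatic brain injury; BCAS is given only as an abbreviation, which the title of the study ties to cerebral hypoperfusion. What operation, if any, the controls had, the time from surgery to dissection and the number of animals behind each library are not given in the sources used here. Replicate numbers 1 and 2 below are those of the labels, which call the 2 libraries of each group biological replicates.

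AMPA receptors are tetramers of the products of the 4 Gria genes and carry most fast excitatory transmission in the brain. The Gria2 product differs from the others at 1 residue of its pore loop, the Q/R site, where the codon for glutamine is changed to one for arginine in the RNA by the adenosine deaminase encoded by Adarb1. Receptors that hold the edited subunit let little calcium through, and receptors without it are calcium permeable, which is known for many cortical interneurons and for oligodendrocyte precursors. TARPs bind the assembled receptor, bring it to the surface and to synapses and slow its closing. Cacng2, Cacng3, Cacng4 and Cacng8 encode the type I TARPs (stargazin, gamma-3, gamma-4 and gamma-8), Cacng5 and Cacng7 the type II TARPs (gamma-5 and gamma-7).

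The stretch of coding sequence around the Q/R site is shown because the share of Gria2 among the 4 subunit genes is the main quantity below. The sequences come from the GENCODE M21 transcripts, which follow the GRCm38 genome, and the capitals mark the Q/R codon.
Gria1 (chr11:57243079-57243111, plus strand, coding exon 11): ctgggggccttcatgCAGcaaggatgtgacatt
Gria2 (chr3:80706896-80706928, minus strand, coding exon 11): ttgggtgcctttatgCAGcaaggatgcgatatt
Gria3 (chrX:41610250-41610282, plus strand, coding exon 11): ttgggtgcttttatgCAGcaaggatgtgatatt
Gria4 (chr9:4464122-4464154, minus strand, coding exon 12): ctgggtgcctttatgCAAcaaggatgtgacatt
All 4 genes encode glutamine at this position in the genome. Over these 33 bases Gria1 differed from Gria2 at 5 positions, Gria4 at 4 and Gria3 at 2. Counts of UMIs (unique molecular identifiers, 1 for each captured RNA molecule) do not record whether an RNA was edited, so the values below are amounts of Gria2 RNA and not of edited receptor.

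The 4 subunit genes lie on separate chromosomes and are long: Gria1 spans 318.9 kb (chr11:57011387-57330244), Gria2 121.4 kb (chr3:80681450-80802835), Gria3 277.7 kb (chrX:41400854-41678601) and Gria4 378.3 kb (chr9:4417896-4796234). Cacng4 (chr11:107732357-107794557) and Cacng5 (chr11:107874605-107915055) are neighbours, as are Cacng7 (chr7:3332955-3368221) and Cacng8 (chr7:3390683-3415648). Cacng2 lies at chr15:77991748-78120028 and Cacng3 at chr7:122670492-122769393.

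Of 53390 barcodes, 48468 passed the filters, 5371 to 7614 in a library, where the labels name a target of about 3000 droplets for each. Total UMIs were 28118725 to 33363564 in 4 libraries (control 1, BCAS 1, TBI 1 and BCAS+TBI 2, the lower-depth set) and 42651388 to 56135192 in the other 4 (the higher-depth set), so each group has 1 library in each set. Marker genes that include none of the 10 members placed 18785 nuclei in a broad class and 12 classes had at least 20 nuclei in every library. Excitatory classes were upper-layer cortical-like (309 nuclei), layer 6 corticothalamic-like (918) and thalamic-like (462). Inhibitory classes were Sst-like (677), Pvalb-like (550), Lamp5-like (317) and the striatal Drd2-like nuclei (500). The other 5 were astrocyte-like (4189), oligodendrocyte-like (3093), oligodendrocyte precursor-like (430), microglia-like (730) and endothelial-like (1353). At least 3 markers of each class were 2-fold higher in it than in the types it was compared with. The gates had used these same markers, so this does not test the identity of a class. The Pvalb marker Pthlh was lower in Pvalb-like nuclei than in the other interneuron types. Drd2-like nuclei were compared only with Drd1-like nuclei. The 10 leading genes of the Drd2-like nuclei also held Slc6a3 and Slc18a2, genes of dopamine neurons, and those of the endothelial-like nuclei held the haemoglobin genes Hbb-bs, Hba-a1 and Hbb-bt. The marker Pde10a alone kept 7770 nuclei with excitatory markers out of the excitatory class, so values under gates without Pde10a, Ntng1 and Slc4a4, a choice made after the data were seen, are given for the thalamic-like nuclei and where a level or an order named here moved most. These revised gates left 635 of 2057 nuclei in the broad striatal class in number, and 326 against 500 in the Drd2-like class. Any 2 libraries shared at most 20 barcodes (0.321% of the smaller).

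Levels are in CPM, the UMIs of a gene as a part of all UMIs summed over the nuclei of a class in a library, scaled so that the genes of a class in a library always sum to the same total, with the SD over all 8 libraries of the 4 groups. Between 2 classes of the same library, the difference in log2(CPM + 10) was tested with an exact two-sided sign-flip permutation test over the 8 libraries, adjusted (Benjamini-Hochberg) over all 17349 genes with at least 5 CPM in a class. The smallest p that 8 libraries allow is 0.0078, which adjusts to 0.0377, so a call at a threshold of 0.05 needs the same sign in 8 of 8 libraries. Of the 660 member tests 338 passed (51.2%), where 20.7% of all 1145034 tests passed. Gria4 differed in 55 of its 66 pairs of classes, Gria3 in 49, Gria1 in 48, Gria2 in 47, Cacng3 in 43, Cacng2 in 42 and Cacng4 in 31. Cacng8 differed in 9, Cacng5 in 8 and Cacng7 in 6.

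**Figure D1:**
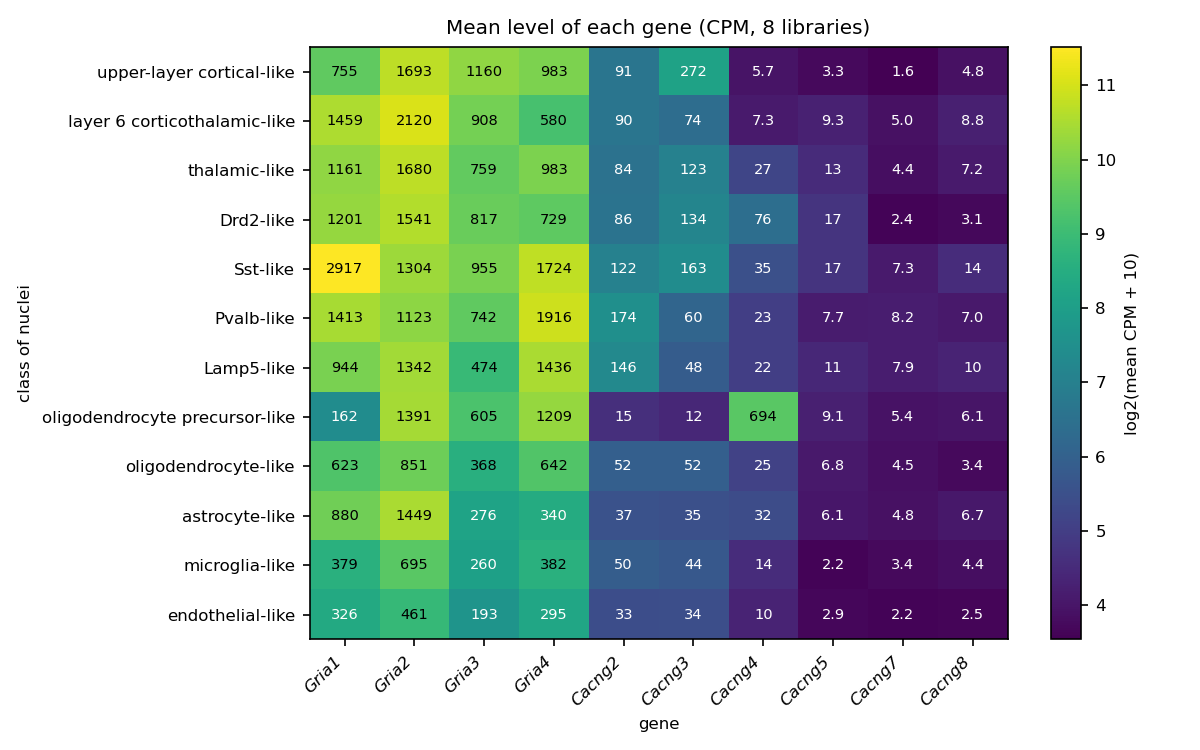
Mean level of the 10 genes (columns) in the 12 tested classes of nuclei (rows). Numbers are mean CPM over 8 libraries and colour is log2(mean CPM + 10). Gria2 was above 1000 CPM in the neuronal classes, and Cacng4 stands out in oligodendrocyte precursor-like nuclei at 694 CPM.

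Gria1, a subunit with a long cytoplasmic tail that is phosphorylated during synaptic plasticity, was highest in Sst-like interneurons at 2917 ± 661 CPM (SD, n = 8). The levels there were 2263 and 3965 CPM in control, 3018 and 3042 in BCAS, 2495 and 3568 in TBI, and 3010 and 1971 in BCAS+TBI (replicates 1 and 2). The control, TBI and BCAS+TBI pairs were each wide, and the 4 groups overlapped. Layer 6 corticothalamic-like nuclei came next at 1459 ± 418 CPM, lower in all 8 libraries by a mean of 1.02 on the log2 scale (exact sign-flip permutation p = 0.0078, adjusted p = 0.0377). The next 5 classes, Pvalb-like (1413), Drd2-like (1201), thalamic-like (1161), Lamp5-like (944) and astrocyte-like (880), followed in steps that did not pass. Oligodendrocyte precursor-like nuclei had the lowest mean, 162 ± 75.2 CPM, 18.1-fold under Sst-like nuclei on the log2(CPM + 10) scale in 8 of 8 libraries (exact sign-flip permutation, adjusted p = 0.0377). With the nuclei of very high UMIs left out (over 3 times the class median in the library) they were at 135 CPM, above microglia-like (106) and endothelial-like nuclei (112).

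Gria2 was highest in layer 6 corticothalamic-like nuclei at 2120 ± 154 CPM. Upper-layer cortical-like nuclei held 1693 ± 93.6 CPM, lower by 0.32 on the log2 scale in 8 of 8 libraries (exact sign-flip permutation p = 0.0078, adjusted p = 0.0377). Thalamic-like (1680), Drd2-like (1541), astrocyte-like (1449), oligodendrocyte precursor-like (1391), Lamp5-like (1342) and Sst-like nuclei (1304) followed in steps that did not pass. Pvalb-like nuclei, at 1123 ± 96.7 CPM, were the lowest of the neuronal classes under the planned gates, 0.21 under Sst-like nuclei on the log2 scale (8 of 8 libraries, exact sign-flip permutation p = 0.0078, adjusted p = 0.0377). Under the revised gates thalamic-like nuclei were lower, at 838 ± 80.6 CPM against 1132 ± 59.9 in Pvalb-like nuclei.

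Gria3, an X-linked subunit gene, was highest in upper-layer cortical-like nuclei at 1160 ± 155 CPM, above Sst-like nuclei (955 ± 137) by 0.28 on the log2 scale in 8 of 8 libraries (exact sign-flip permutation p = 0.0078, adjusted p = 0.0377). Lamp5-like nuclei were the lowest of the tested neuronal classes at 474 ± 55.2 CPM. A lower level was seen in Vip-like interneurons, which had only 19 nuclei in 1 library and were described without a test: 134 ± 62 CPM, with a Gria3 UMI in 32.7% of 217 nuclei against 81.3% in Pvalb-like nuclei, the lowest percentage of the tested neuronal classes. The Vip-like values ran from 71 to 252 CPM and stayed under the 8 values of the upper-layer cortical-like nuclei, 889 to 1335 CPM.

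Gria4, a subunit gene known from fast-spiking interneurons, was highest in Pvalb-like nuclei at 1916 ± 230 CPM. Sst-like nuclei held 1724 ± 295 CPM, lower by 0.16 on the log2 scale in 8 of 8 libraries (exact sign-flip permutation p = 0.0078, adjusted p = 0.0377), and Lamp5-like nuclei 1436 ± 268. Oligodendrocyte precursor-like nuclei followed at 1209 ± 184 CPM, above upper-layer cortical-like nuclei (983 ± 176) by 0.30 on the log2 scale (8 of 8 libraries, adjusted p = 0.0377 by the same exact permutation test). Under the revised gates the precursors, at 1172 ± 151 CPM, were under thalamic-like (1279 ± 155) and Rorb mid-layer cortical-like nuclei (1624 ± 211). The Rorb type held 610 nuclei there and too few for a test under the planned gates. Among the neuronal classes Gria4 was lowest in layer 6 corticothalamic-like nuclei, at 580 ± 139 CPM, against 729 ± 130 in Drd2-like nuclei; this last order turned under the revised gates and in nuclei thinned to 1000 UMIs.

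The thalamic-like values depend on the gate. Under the planned gate the class held less RNA of each of its own markers than under the revised gates. Tcf7l2 was 222 against 703 CPM, Lef1 86.7 against 580 and Synpo2 134 against 801. Ntng1, not a marker in the revised gates, was 1793 against 3520 CPM. Without Ntng1 and Pde10a as markers the class held 763 nuclei, and Gria2 was 838 CPM, not 1680, and Gria1 486 CPM, not 1161. Gria4 there was 1279 CPM, above the 983 CPM of the planned gate. Cacng3 was 36.9, not 123 CPM, and Cacng4 66.2, not 27.3 CPM. Of the 421 level differences that pass when adjusted over the members alone, 15 had the opposite sign under the revised gates, and 12 of these involve thalamic-like nuclei.

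To compare genes with each other, levels were divided by gene span, since nuclear RNA is largely unspliced and long genes hold more sites for the primer. Per kb of span Gria2 was the highest member in every tested class: 17.5 ± 1.26 CPM per kb in layer 6 corticothalamic-like nuclei against 4.58 for Gria1, and 11.5 in oligodendrocyte precursor-like nuclei against 11.2 for Cacng4. Sst-like nuclei were the class where Gria1 came closest to it among neurons, at 9.15 against 10.7 CPM per kb.

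**Figure D2:**
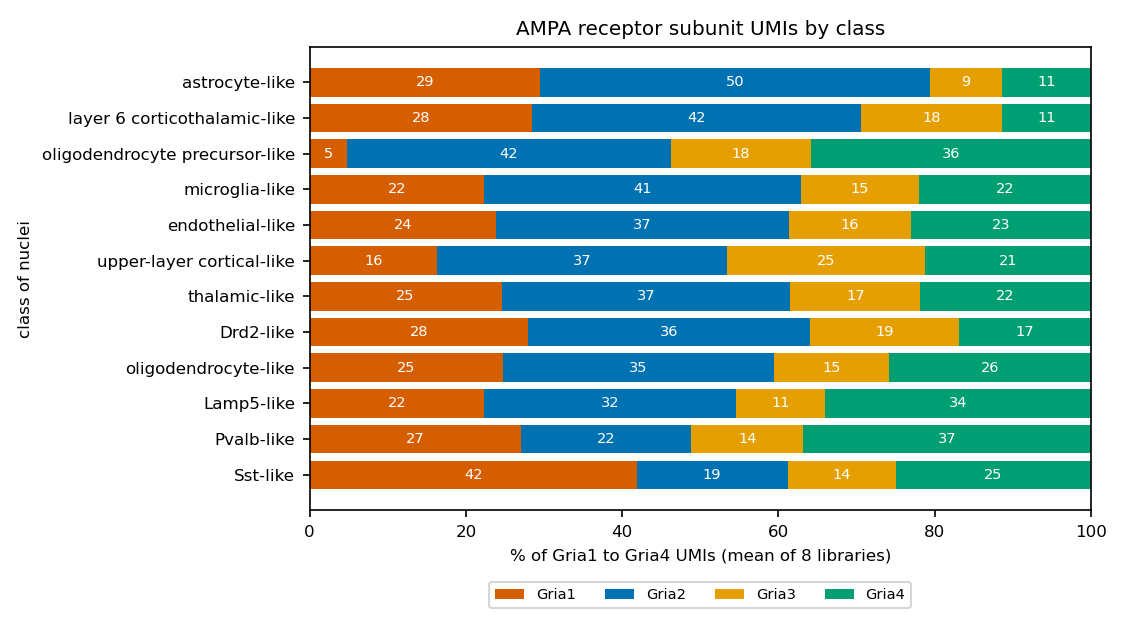
Share of each of the 4 subunit genes among their summed UMIs (x axis, percent, mean of 8 libraries) in the 12 tested classes, ordered by the Gria2 share. Gria2 takes 50% in astrocyte-like and 19% in Sst-like nuclei, Gria1 42% in Sst-like and 5% in oligodendrocyte precursor-like nuclei.

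The share of Gria2 among UMIs of Gria1 to Gria4 needs no normalization between libraries. It was 19.3% ± 3.77 (SD, n = 8) in Sst-like and 21.9% ± 3.25 in Pvalb-like interneurons, the lowest of the 12 classes. With UMIs divided by gene span, which lowers the weight of the longer genes, the share was 38.9% ± 5.66 in Sst-like, 43.4% ± 4.57 in Pvalb-like, 65.1% ± 5.17 in layer 6 corticothalamic-like and 72.3% ± 4.98 in astrocyte-like nuclei, so its size depends on the scale while these 4 classes keep their order. The shares below are of UMIs. In Sst-like nuclei the shares of replicates 1 and 2 were 23.1% and 15.2% in control, 19.0% and 17.6% in BCAS, 23.4% and 15.5% in TBI, and 16.5% and 24.4% in BCAS+TBI. Each of the 4 groups spans a higher and a lower value and they overlap throughout. Lamp5-like interneurons were at 32.3% ± 4.94, above Pvalb-like nuclei by 10.4 points in 8 of 8 libraries (exact sign-flip permutation p = 0.0078, adjusted p = 0.0143 over 66 pairs of classes). Pvalb-like and Sst-like nuclei differed by 2.52 points (exact permutation p = 0.0391, adjusted p = 0.0573).

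The tested excitatory classes and the Drd2-like nuclei lay close together under the planned gates: upper-layer cortical-like nuclei at 37.1% ± 4.18, thalamic-like at 37.0% ± 5.46, Drd2-like at 36.1% ± 4.46 and layer 6 corticothalamic-like nuclei higher at 42.2% ± 5.65. Each of these classes was above Sst-like and Pvalb-like nuclei in 8 of 8 libraries (exact permutation, adjusted p = 0.0143 for each pair). Under the revised gates the thalamic-like share was 26.9% ± 3.52, between those of Pvalb-like and Lamp5-like nuclei. Lamp5-like nuclei were also under layer 6 corticothalamic-like (-9.92 points, adjusted p = 0.0143) and upper-layer cortical-like nuclei (-4.88, adjusted p = 0.048) by exact permutation. Drd2-like nuclei were above Lamp5-like nuclei by 3.87 points (adjusted p = 0.025), and the thalamic-like pair did not pass (adjusted p = 0.0897), by the same test. Vip-like interneurons, described without a test, had 44.5% ± 4.49, so the 4 interneuron types did not share a low value. Striatal Drd1-like nuclei, also described without a test, had 30.7% ± 4.74 and the broad striatal class 31.9% ± 4.70, near Lamp5-like nuclei. Under the revised gates these were 33.8% ± 5.54 and 36.1% ± 4.38, against 32.0% ± 5.01 in Lamp5-like nuclei. Of the 66 pairs of classes 43 differed. Between neighbours in the order only 2 steps passed, from astrocyte-like to layer 6 corticothalamic-like and from Lamp5-like to Pvalb-like nuclei. Single-library 95% Wilson intervals, which cover counting error only, reached at most 4.39 points to either side in the neuronal classes and 7.38 in microglia-like nuclei.

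**Figure D3:**
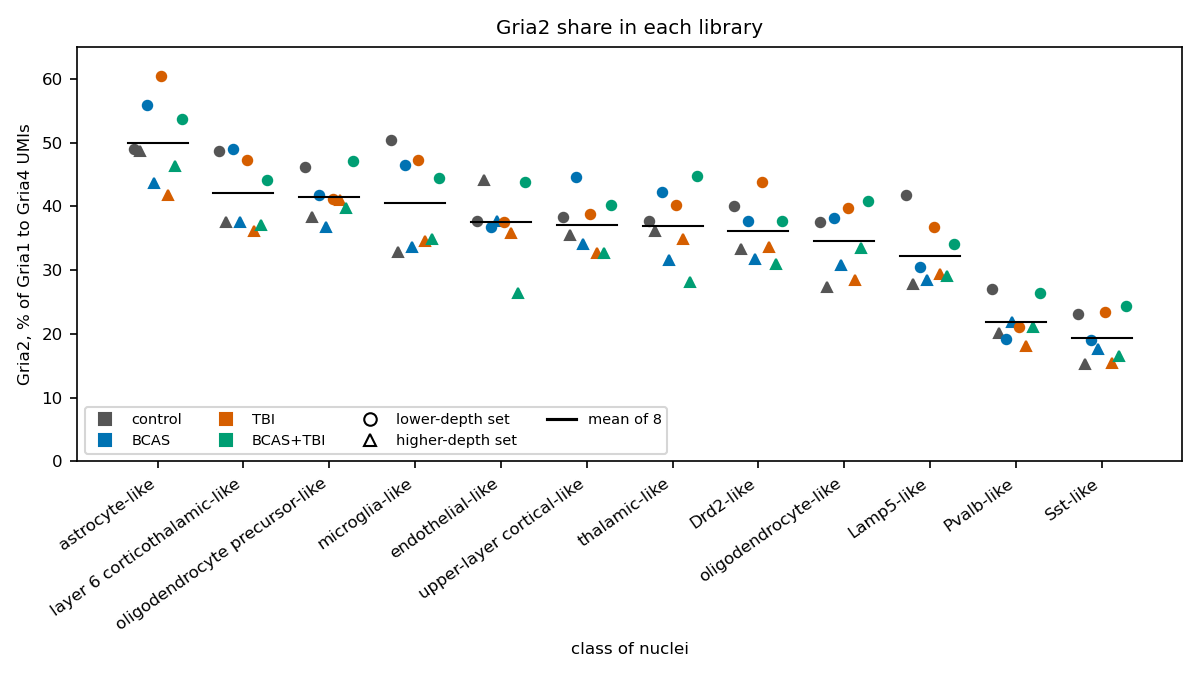
Gria2 share of Gria1 to Gria4 UMIs (y axis, percent) in each library for the 12 classes, ordered by mean (black line). Colour is the group and shape the depth set. Sst-like and Pvalb-like points lie lowest, the 4 groups mix within every class, and circles (lower depth) tend to lie above triangles.

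The mix of subunit UMIs is compared here between classes, since the order of genes within a class depends on gene span. Gria4 made up 36.8% of subunit UMIs in Pvalb-like and 24.9% in Sst-like nuclei, and Gria1 27.0% in Pvalb-like and 41.8% in Sst-like nuclei. Per kb of span Gria2 was above both genes in either class, at 9.25 CPM per kb in Pvalb-like nuclei against 5.07 for Gria4. Upper-layer cortical-like nuclei had the largest Gria3 part, 25.2%, and layer 6 corticothalamic-like nuclei had a Gria4 part of 11.4% against 16.9% in Drd2-like nuclei. With the revised gates Gria4 was 669 CPM in layer 6 corticothalamic-like and 560 CPM in Drd2-like nuclei, the opposite order. Oligodendrocyte precursor-like nuclei had 41.5% Gria2, 35.8% Gria4, 17.9% Gria3 and 4.77% Gria1.

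Depth moved with the share. The mean Gria2 share of the 4 lower-depth libraries was above that of the 4 higher-depth libraries in 12 of 12 classes, by 2.97 to 13.1 points. It was 54.8% ± 4.74 against 45.1% ± 3.00 in astrocyte-like and 22.5% ± 2.38 against 16.2% ± 1.09 in Sst-like nuclei. Gria1 and Gria4 CPM were higher in the higher-depth set in 12 of 12 classes, while Gria2 CPM was higher in the lower-depth set in 9 of 12. The part of depth in this was not tested.

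Among the type I TARPs, Cacng4 had the sharpest pattern. In oligodendrocyte precursor-like nuclei it was 760 and 739 CPM in control, 503 and 886 in BCAS, 660 and 754 in TBI, and 679 and 575 in BCAS+TBI (replicates 1 and 2). The 4 groups overlap, and the mean was 694 ± 119 CPM. Drd2-like nuclei came next at 75.9 ± 13.7 CPM, lower by 3.03 ± 0.21 on the log2 scale in 8 of 8 libraries (exact sign-flip permutation p = 0.0078, adjusted p = 0.0377). Sst-like nuclei followed at 34.9 ± 16.6 and astrocyte-like nuclei at 31.7 ± 5.3 CPM. Upper-layer cortical-like nuclei held 5.7 and layer 6 corticothalamic-like nuclei 7.3 CPM. A Cacng4 UMI was found in 310 of 430 oligodendrocyte precursor-like nuclei (72.1%, 95% Wilson interval 67.7 to 76.1), in 22 of 1353 endothelial-like nuclei (1.63%) and in 10 of 309 upper-layer cortical-like nuclei (3.24%), whose median depth was higher in every library than that of the precursors.

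Cacng3 was highest in upper-layer cortical-like nuclei at 272 ± 62.7 CPM, with library values from 189 to 393, above Sst-like nuclei (163 ± 27) by 0.69 on the log2 scale in 8 of 8 libraries (exact sign-flip permutation p = 0.0078, adjusted p = 0.0377). Drd2-like nuclei had 134 ± 19.2 CPM, layer 6 corticothalamic-like nuclei 73.7 ± 16.4 and Lamp5-like nuclei 47.6 ± 16.3. Cacng2, the stargazin gene, led in the tested interneuron classes under the planned gates: 174 ± 32.7 CPM in Pvalb-like, 146 ± 32.8 in Lamp5-like and 123 ± 27 in Sst-like nuclei. The step from Sst-like to upper-layer cortical-like nuclei (90.6 ± 27.6) passed, 0.41 on the log2 scale in 8 of 8 libraries (adjusted p = 0.0377 by the same exact permutation test). Under the revised gates Pvalb-like nuclei (185 ± 28.7 CPM) were still above the excitatory types. Rorb mid-layer cortical-like (133 ± 28.2) and thalamic-like nuclei (121 ± 21.5) then lay beside Lamp5-like (138 ± 27.3) and Sst-like nuclei (124 ± 26.7). In oligodendrocyte precursor-like nuclei both genes were low, Cacng2 at 14.6 ± 9.5 and Cacng3 at 11.5 ± 12 CPM, so Cacng4 was the main TARP RNA counted there.

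Cacng8, the type I TARP gene known from hippocampus, and the type II genes were near the counting limit. Cacng8 reached at most 13.7 ± 6.2 CPM (Sst-like), Cacng7 8.2 ± 3.9 (Pvalb-like) and Cacng5 16.8 ± 6.3 (Drd2-like) in the tested classes, and Cacng5 28.6 ± 17.6 CPM in Vip-like nuclei on 30 UMIs in all. No neighbouring classes differed for these 3 genes at this depth. Under the revised gates Cacng5 was 40.9 CPM in thalamic-like nuclei, against 12.8 under the planned gate.

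Non-neuronal nuclei also hold neuronal RNA, so their values need a background. The summed level of Rbfox3, Snap25, Syt1 and Stmn2, neuronal genes used in no gate, was 12.1% of its level in excitatory neuron-like nuclei in oligodendrocyte precursor-like nuclei, 25.4% in endothelial-like, 29.7% in astrocyte-like, 35.1% in microglia-like and 41.1% in oligodendrocyte-like nuclei. The same percentage of the excitatory level of a gene is called its carried level below. It takes the neuron RNA to have the make-up of excitatory nuclei. The broad GABA neuron-like class had more Gria4 (1592 against 987 CPM) and Cacng4 (32.9 against 11.6) than excitatory nuclei, and less Gria2 (1251 against 1816). The broad striatal class had 55.1 CPM of Cacng4. Carried levels from these classes were not tested. With the nuclei of very high UMIs left out, these percentages were 10.4, 15.1, 14.9, 14.2 and 12.9.

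**Figure D4:**
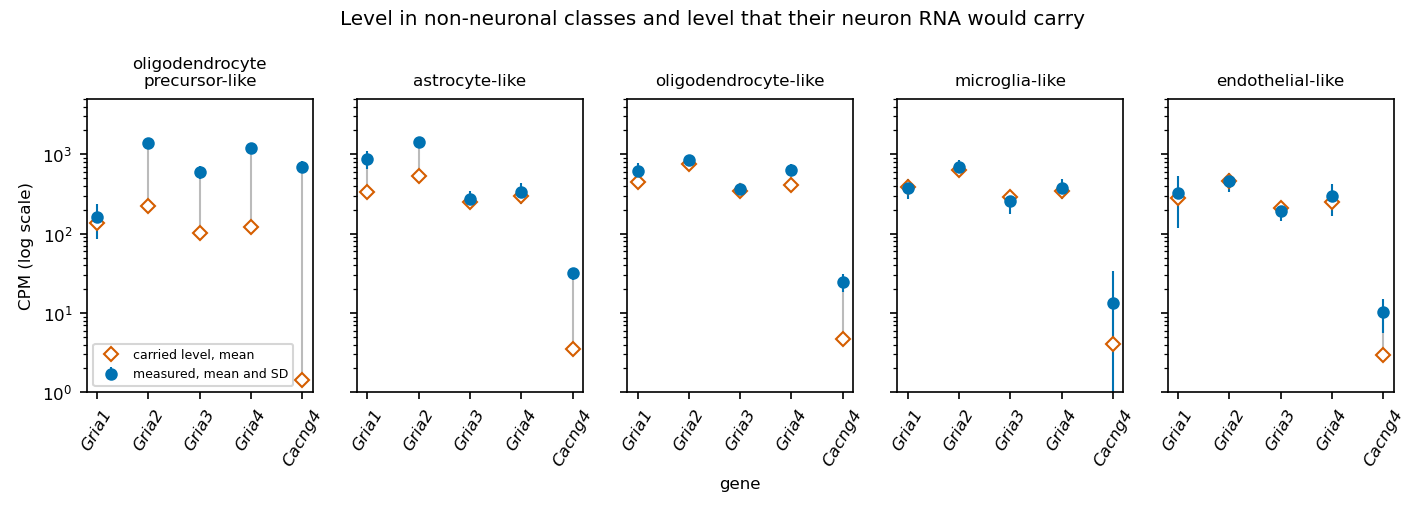
Level of the subunit genes and Cacng4 (blue, mean and SD of 8 libraries) in 5 non-neuronal classes, CPM on a log axis. Open orange is the mean level that neuron RNA would carry if it had the make-up of excitatory nuclei. Blue lies well above orange for Gria2, Gria3, Gria4 and Cacng4 in oligodendrocyte precursor-like nuclei and for Gria1, Gria2 and Cacng4 in astrocyte-like nuclei, and close to it for the subunit genes in microglia-like and endothelial-like nuclei. The lower SD bar of Cacng4 in microglia-like nuclei runs off the axis.

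Oligodendrocyte precursors are known to receive synapses from neurons and to express AMPA receptors. In these nuclei Gria2 was 1391 ± 97.4 CPM against a carried level of 221, Gria4 1209 against 120, Gria3 605 against 101 and Cacng4 694 against 1.43, each above it in 8 of 8 libraries. Gria1, at 162 CPM, was above its carried level of 136 in 5 of 8 libraries, and under the revised gates, at 199 against 138 CPM, in 8 of 8. A Gria4 UMI was found in 82.6% of these nuclei against 20.1% of microglia-like nuclei, and a Gria1 UMI in 22.8% against 17.8%. The precursors were the deeper of these classes, with a median of 1556 to 3193 UMIs in a library against 981 to 1520. Their values moved little without the nuclei of very high UMIs, to 1393 CPM for Gria2 and 712 for Cacng4.

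Astrocyte-like nuclei held Gria2 at 1449 ± 44.9 CPM against a carried 538, and Gria1 at 880 ± 233 against 338, in 8 of 8 libraries each. Gria3 (276 against 251 CPM) and Gria4 (340 against 296) were close to it. Their Gria2 share, 49.95% ± 6.35, was the highest of the 12 classes, above layer 6 corticothalamic-like nuclei in 8 of 8 libraries (exact sign-flip permutation p = 0.0078, adjusted p = 0.0143). Under the revised gates Gria1 was 659 CPM against a carried 228 and Gria4 345 against 252, both above it in 8 of 8 libraries. Without the nuclei of very high UMIs the share was 60.04% ± 6.63, and Gria4 fell to 168 and Gria3 to 137 CPM, while Gria2 was 1356.

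Oligodendrocyte-like nuclei held 851 ± 127 CPM of Gria2 against a carried 747 and 642 ± 116 of Gria4 against 407. Gria1 was 623 ± 155 CPM against 451 and Gria3 368 ± 56.6 against 343, each above the carried level in 8 of 8 libraries. Without the nuclei of very high UMIs Gria2 was 368 against 234 and Gria4 323 against 129 CPM, above it in 8 of 8 libraries for both genes. Gria1 was then 139 against 145 and Gria3 112 against 108 CPM, above the carried level in 3 and 5 of 8 libraries. Microglia-like nuclei (Gria2 695 against 640 CPM, above it in 5 of 8 libraries) and endothelial-like nuclei (461 against 462, in 4 of 8) were not above it in all 8 libraries for any subunit gene. Gria1 in microglia-like nuclei was, under the revised gates, 584 CPM, not 379, and above its carried level of 398 in 7 of 8 libraries, not 4.

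The other genes of the pathway, 28 in a list of auxiliary subunits, assembly, scaffold and editing genes, passed in 803 of 1848 tests between classes (43.5%, where all genes gave 20.7%). Grip1, whose PDZ domains bind the Gria2 and Gria3 tails, was 3499 ± 796 CPM in Pvalb-like, 3336 ± 642 in Lamp5-like and 2795 in Sst-like interneurons, and 142 ± 52.4 in upper-layer cortical-like nuclei. Shisa6, an auxiliary subunit that keeps receptors at synapses, was 458 ± 118 CPM in layer 6 corticothalamic-like and 374 ± 45.2 in Sst-like nuclei, and 46 ± 18.8 in upper-layer cortical-like nuclei. Camk2a, the kinase subunit that phosphorylates the Gria1 tail, was 943 ± 102 CPM in upper-layer cortical-like and 653 ± 79.9 in layer 6 corticothalamic-like nuclei (exact sign-flip permutation, adjusted p = 0.0377). The neuronal pentraxin genes Nptx1 (156 ± 40.3 CPM, layer 6 corticothalamic-like) and Nptxr (169 ± 72.7, upper-layer cortical-like) were each above the next class by the same test (adjusted p = 0.0377). Adarb1, the editing enzyme gene, ran from 53.2 ± 18.1 CPM in oligodendrocyte precursor-like to 190 ± 70.6 in thalamic-like nuclei.

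Genes with the most similar pattern were sought among 7269 genes of at least 50 CPM in a class, by Pearson correlation of log2(CPM + 10) over the 12 class means. The points share libraries and the neuron RNA described above, so the values are descriptions. Gria1 was most like Cdh9 (r = 0.93), Cntnap1 and Glmn, Gria2 like Dok6 (0.97), Adgrl1 and Grik5, Gria3 like Slc2a3 (0.96), Cyfip2 and Dlg2, and Gria4 like Usp13 (0.96), Aff2 and Sntg1. Cacng2 was most like Slc6a17 (0.98), Snhg11 and Cntnap2, Cacng3 like Syt4 (0.93), Cntn3 and Hecw1, and Cacng4 like Cdo1 (0.95), Lhfpl3 and Stk32a. The near-zero genes reached r = 0.88 with Cxxc4 (Cacng5), 0.92 with Tcp11l1 (Cacng7) and 0.87 with Chl1 (Cacng8).

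The design asks what TBI does, what BCAS does and whether BCAS changes the response to TBI. No member passed the threshold in any of 7 contrasts. Counts summed by library and class were tested with edgeR's quasi-likelihood test on all 8 libraries, adjusted (Benjamini-Hochberg) over all 95730 gene and class pairs. In simulated counts for astrocyte-like and layer 6 corticothalamic-like nuclei, adjusted within the class, this fit recovered 27% of 2-fold TBI changes. The absence of calls therefore does not show that levels stayed the same. Of 120 member and class pairs 82 passed the filter on low counts: the 4 subunit genes in all 12 classes, Cacng2 and Cacng3 in 11, Cacng4 in 7, Cacng5 in 3, Cacng8 in 2 and Cacng7 in none. For TBI averaged over BCAS 0 of the 82 were called, where the share of all pairs called was 0%. At an unadjusted p under 0.05 edgeR gave 2 (2.44%) and DESeq2 1, where all pairs gave 1.42% in edgeR. For BCAS averaged over TBI 0 were called (all pairs 0%), with 1 at an unadjusted p under 0.05 in edgeR and 0 in DESeq2 (all pairs 1.11% in edgeR). For the interaction 0 were called (all pairs 0%), with 0 in both tools (all pairs 1.16% in edgeR). The DESeq2 counts have no share over all pairs beside them. The pairwise contrasts against control, and BCAS+TBI against TBI, also gave 0 (all pairs 0%).

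The median log2 fold change of the 82 pairs was -0.023 for TBI (all pairs 0.0032) and 0.048 for BCAS (all pairs -0.0015). Of the other pathway genes 264 pairs were tested and 0 were called in any contrast, with a median of 0.0012 for TBI and 0.03 for BCAS and 6 pairs at an unadjusted p under 0.05 for each.

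**Figure D5:**
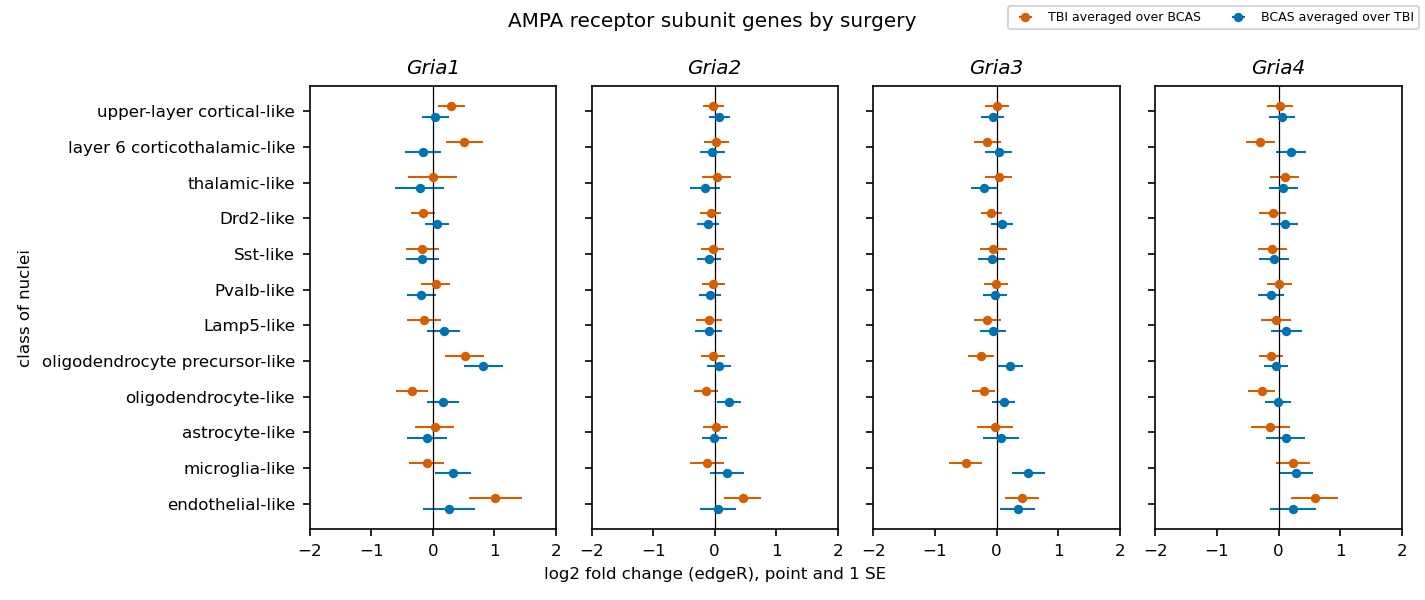
Log2 fold change of the 4 subunit genes (panels) in each class (rows) for TBI averaged over BCAS (orange) and BCAS averaged over TBI (blue), edgeR estimate and 1 standard error. None passed the threshold. The widest TBI estimate is Gria1 in endothelial-like nuclei at 1.02.

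The TBI estimates of Gria2 lay between -0.14 in oligodendrocyte-like and 0.45 in endothelial-like nuclei, and the BCAS estimates between -0.15 and 0.23. The TBI estimates of Gria1 ran from -0.34 in oligodendrocyte-like to 1.02 in endothelial-like nuclei for TBI.

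By the smallest p, the TBI pairs were Gria1 and Cacng3 in endothelial-like and Gria3 in microglia-like nuclei. Gria1 in endothelial-like nuclei was 212 and 139 CPM in control, 209 and 322 in BCAS, 194 and 696 in TBI, and 602 and 234 in BCAS+TBI. TBI 2 and BCAS+TBI 1 were high and TBI 1 and BCAS+TBI 2 were within the range of the other groups. The log2 fold change was 1.02 (SE 0.43, edgeR adjusted p = 1). The neuron RNA level of the same nuclei was 36.4% in TBI 2 and 24.9% in BCAS+TBI 1 and ran from 15.3% to 31.8% in the other libraries. Without the nuclei of very high UMIs the fold change was 0.46 (SE 0.53). Cacng3 in these nuclei had 0.86 (SE 0.37, edgeR adjusted p = 1) on 102 UMIs in all, and Gria3 in microglia-like nuclei -0.50 (SE 0.27, edgeR adjusted p = 1).

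For BCAS the pair of smallest p was Gria1 in oligodendrocyte precursor-like nuclei, at 110 and 91.7 CPM in control, 214 and 135 in BCAS, 69.4 and 188 in TBI, and 297 and 192 in BCAS+TBI. The log2 fold change was 0.82 (SE 0.32, edgeR adjusted p = 1) on 180 UMIs in all, 8 in the lowest library. Values with and without BCAS overlapped, TBI 2 lying above BCAS 2. The neuron RNA level of these nuclei ran from 11.1% to 17.6% with BCAS and from 8.3% to 15.3% without, and its part in the difference was not tested. Gria3 in microglia-like nuclei (0.52, SE 0.27) and Cacng3 in endothelial-like nuclei (0.51, SE 0.37) followed. For the interaction these were Cacng4 in Sst-like nuclei (-1.53, SE 0.79), Gria4 in microglia-like nuclei (-0.91, SE 0.56) and Cacng5 in layer 6 corticothalamic-like nuclei (1.67, SE 1.06), each with an adjusted p of 1 in edgeR.

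With the depth set as a further term in the fit, 0 of 82 pairs were called for TBI (all pairs 0.00104%), and 10 had an unadjusted p under 0.05 (12.2%, all pairs 5.13%). For BCAS 0 were called (all pairs 0.00313%) and 2 had an unadjusted p under 0.05 (all pairs 3.94%), and for the interaction 0 (all pairs 0.0136%) and 4 (all pairs 4.38%). The pairwise contrasts with this term gave 0 member calls as well, where the share of all pairs called was 0.00313% between TBI and control, 0.0209% between BCAS and control, 0% between BCAS+TBI and control and 0.00627% between BCAS+TBI and TBI. The smallest p for TBI belonged to Gria1 in layer 6 corticothalamic-like nuclei: 993 and 1637 CPM in control, 812 and 1382 in BCAS, 1353 and 2112 in TBI, and 1746 and 1635 in BCAS+TBI. Within the lower-depth set control 1 and BCAS 1 lay under TBI 1 and BCAS+TBI 2, and within the higher-depth set control 2 and BCAS 2 lay under TBI 2 and BCAS+TBI 1. The log2 fold change was 0.55 (SE 0.11, edgeR adjusted p = 0.239). Under the revised gates, with 3600 nuclei in this class, it was 0.20 (SE 0.067, edgeR adjusted p = 0.946).

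This term and the loss of 1 library together gave the only member calls. Without BCAS+TBI 1, Gria1 in layer 6 corticothalamic-like nuclei was called for TBI (0.70, SE 0.091, edgeR adjusted p = 0.00063, where 0.231% of all pairs were called), as was the pathway gene Shisa6 there (0.67, SE 0.12, edgeR adjusted p = 0.0117). Without control 1, Gria1 in endothelial-like nuclei was called for TBI averaged over BCAS (1.40, SE 0.24, edgeR adjusted p = 0.0217, all pairs 0.0734%), for TBI against control (2.13, edgeR adjusted p = 0.0297, all pairs 0.0897%) and for BCAS+TBI against control (2.15, edgeR adjusted p = 0.0359, all pairs 0.0634%). Grip1 in microglia-like nuclei was called for BCAS against control in the same fit (2.16, SE 0.48, edgeR adjusted p = 0.0433). In these fits 1 group has a single library, which is assumed to vary like the others.

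No difference in Gria2 share between libraries with and without either surgery passed the threshold in any of 12 classes. With adjustment over 24 tests, a change in a single class could not have passed. These tests therefore do not show that the share stayed the same. An exact two-sided permutation test of 4 against 4 libraries can reach p = 0.0286, and of 24 tests the smallest p was 0.343 (adjusted p = 1), for BCAS in Drd2-like nuclei (34.5% ± 3.66 with BCAS, 37.7% ± 5.10 without). Differences ran from -3.45 points (BCAS, Lamp5-like) to 2.53 points (BCAS, oligodendrocyte-like). With assignments kept within the depth sets, which cannot go under p = 0.0556, that p was reached in exact permutation for BCAS in Drd2-like nuclei (-3.24 points) and for TBI in layer 6 corticothalamic-like nuclei (-2.03 points), adjusted p = 0.667 for both.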

How the data were processed

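The deposited files hold whole-number UMI counts for each gene and barcode, 1 matrix for each library, which, per the file headers, the authors made with Cell Ranger 7.0.0. The submitters' processing notes name GRCm38, mm10 and Seurat without a role. Of the 54232 feature IDs, 54165 are in GENCODE M21 (GRCm38), which gave coordinates and sequences. The members, gene lists and tests were chosen with earlier results of these data known.

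A barcode was kept if it had 500 or more UMIs, 300 or more genes and no more than 5% mitochondrial UMIs. A broad class needed 3 UMIs over its markers, 2 different markers and 3 times the marker UMIs of every other class. A type within it needed 2 UMIs and the same ratio. No doublet caller was run: the ratio leaves out nuclei with markers of several classes, and an alternative leaves out nuclei of over 3 times the median UMIs. Between 0.461% (Vip-like) and 28.7% (Drd1-like) of a class lay exactly at the minimum. In all, 29683 nuclei stayed without a class, and their median depth in a library (3992 to 7842 UMIs) was above that of the nuclei with one (2571 to 4405).

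Counts were summed by library and class, since nuclei are not replicates. Contrasts used edgeR 4.0.16 (R 4.3.3; quasi-likelihood test, TMM normalization, low counts removed by filterByExpr at 10), with DESeq2 1.42.0 as an alternative. Levels and shares used exact permutation tests in Python 3.11.15 (scipy 1.17.1). The planned adjustment of level differences over the members alone was replaced by one over all genes. The labels call the 2 libraries of a group biological replicates but do not give the animals behind each. The p-values measure only the spread between these libraries, of which an unknown part may be technical. The scripts were tested on simulated data. In simulated counts for astrocyte-like and layer 6 corticothalamic-like nuclei, adjusted within the class, edgeR recovered 27% of 2-fold TBI changes in each. Of 4-fold changes it recovered 94% and 96%. With the depth-set term it recovered 23% of 2-fold changes in each class. All members are named; for surgery, where no pair passed, the 3 pairs of smallest p are named for each averaged contrast. Overlapping and antisense genes were not separated.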

Additional observations from a re-analysis of the deposited data

How the results depend on the processing

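Adjusted over the members alone, as planned, 421 of 660 level differences between classes passed. The alternatives gave 287 (nuclei thinned to 1000 UMIs) to 445 (revised gates), and leaving out a library 342 to 414. Of 66 Gria2 share differences 43 passed, 42 to 45 with a library left out, and 27 with at least 300 UMIs of Gria1 to Gria4 in every library, which leaves fewer classes to pair. The shares that moved by over 1 SD were those of astrocyte-like nuclei (60.04% without nuclei of very high UMIs, 58.3% thinned), endothelial-like nuclei (45.1% without them) and thalamic-like nuclei (26.9% under the revised gates).

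Member calls by surgery were 0 in 220 of 224 settings and contrasts. With a library left out they ran from 0 to 1, the 1 being Gria1 under the depth-set term without control 1 or BCAS+TBI 1. Gria3 in microglia-like nuclei turned for TBI, to 0.043 without nuclei of very high UMIs, 0.0093 under the revised gates and 0.0036 with the depth-set term added, with types or broad neuron classes. Cacng5 in layer 6 corticothalamic-like nuclei turned for the interaction, to -0.55 under the revised gates and -0.59 with that term. The cause was not tested. The share by surgery gave 0 calls under every alternative run, where a change in a single class could not have passed.

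The replicate numbers of the labels were not shown to pair libraries: deviations of same-numbered libraries correlated at 0.154 to 0.60 among control, BCAS and TBI and at -0.622 to -0.251 with BCAS+TBI. The change of sign goes with the depth sets: replicate 1 was the lower-depth library in control, BCAS and TBI and the higher-depth one in BCAS+TBI. With the replicate number as a block, which therefore does not follow the depth sets, 0 members were called in each of the 7 contrasts. The settings without Pde10a, with the depth-set term and with all genes adjusted together were added after the data were seen. Depth limits Cacng5, Cacng7 and Cacng8, and Gria1 in oligodendrocyte precursor-like nuclei.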
